A study of Arabidopsis thaliana with 4 samples.

Results

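The plastid-encoded transcripts of Arabidopsis thaliana shoots were described as all loci of the deposited table whose identifier starts with ATCG, the prefix of the plastid genome, and whose mean over the 4 value columns was at least 10.8 normalized counts. Of 133 such loci, 97 met this rule, out of 33558 loci in the table. Members were thus chosen by their level over all columns and not by a difference between any of them. The lowest members had means of 12.1 and 12.3 normalized counts, and the highest loci left out had means of 9.71 and 9.36. Of the 36 loci left out, 3 reached 10.8 in at least 1 column, and 5 members were below it in at least 1 column.

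The plastid genome is a small circular chromosome, present in many copies per chloroplast, that encodes a part of both photosystems, of the cytochrome b6f complex, of ATP synthase and of the NDH complex, the large subunit of Rubisco, ribosomal RNAs, tRNAs and ribosomal proteins. The other subunits of these complexes are nuclear genes, so that each complex is built from transcripts of both genomes. Plastid genes are transcribed, often several in a row, by a bacterial-type polymerase that needs nuclear-encoded sigma factors and associated proteins, and by phage-type polymerases from the nucleus. The abundance of their transcripts is known to depend on nuclear-encoded RNA-binding proteins as well as on transcription.

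A large part of the chloroplast chromosome is present as an inverted repeat, which decides how far single loci can be told apart by short reads. In RefSeq's TAIR10.1 assembly the chromosome has 154478 bases, and the repeat of 26264 bases lies at 84171 to 110434 and again, on the other strand, at 128215 to 154478. The first copy holds 16 annotated genes entirely and the second 17, among 131 annotated gene entries (87 protein-coding, 37 tRNA and 7 rRNA). The following 60 bases show the edge of each copy, 5′ to 3′, with the repeat in capitals and the single-copy sequence beside it in lower case; they are shown because a read that lies in the capitals fits both copies equally. The first is the plus strand of Pltd:84151-84210, and the second is the minus strand of Pltd:154439-154478 preceded by the minus strand of bases 1 to 20 of the circle.
first copy: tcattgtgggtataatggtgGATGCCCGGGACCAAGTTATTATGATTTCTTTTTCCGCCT
second copy: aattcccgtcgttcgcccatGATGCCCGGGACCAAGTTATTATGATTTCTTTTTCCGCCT
All 40 bases inside the repeat were equal, against 3 of the 20 bases outside it.

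The deposited values carried the mark of this repeat. Among the members, 9 pairs of loci had nearly the same reads in every library. For the 7 pairs that could be compared as reads, the chi-square per library between partners lay between 0.00201 and 0.133, where independent loci of equal level give about 1. The other 2 pairs differed by at most 0.536% in any column. Of 8 close pairs of tested loci, the 7 whose identifier numbers ran in opposite order were kept, since the 2 copies of the repeat run so. The order of these 7 was thus a rule of choice and is no separate support for the repeat. The chi-square limit of 0.15 for calling a pair close was set after the values were seen, and the 1 close pair out of this order was not counted. The reads of such a pair cannot be assigned to either copy, so the 97 members stand for at most 88 separately measured sequences. Some counts are given below with each pair taken once, but shares of the columns are not. ATCG00960 and ATCG01170, and ATCG00840 and ATCG01300, also mirror each other in locus order but were not counted as pairs. Their means were 116 and 86.1, and 16.7 and 12.3 normalized counts. Whether they are copies within the repeat was not tested, so counts with pairs taken once may still hold both copies of a sequence.

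Neither the table nor the annotation pairs most plastid identifiers with gene names, so no name or function is given for those. For 5 members described here, notes in RefSeq's annotation tie the identifier to a protein. These are ATCG00430 (in the note, photosystem II reaction center protein G), ATCG00530 (a CemA-like protein), ATCG00660 and ATCG01310 (ribosomal proteins L20 and L2) and ATCG00670 (the plastid-encoded ClpP protease subunit). In TAIR10.1, cemA lies on the plus strand of chromosome Pltd at 60741 to 61430, rpl20 on the minus strand at 68512 to 68865 and clpP on the minus strand at 69910 to 71882. The gene rpl2 lies inside the repeat and is annotated at 84337 to 85843 (minus strand) and at 152806 to 154312 (plus strand). ATCG01310 shared its reads with another member. Lengths are not paired with the identifiers either, so where loci are ranked by abundance below, the rank is by normalized reads and not per length.

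The samples were shoots of 7-day-old seedlings of the accession Col-0 and of a line whose labels name the alleles hfr1-4 and pil1-2 in genes of a pair of helix-loop-helix proteins that act in shade. Seedlings grew without sucrose at 22 °C. They had constant white light (30 to 50 µE, with a ratio of red to far-red light, R:FR, of 1.2) for 7 d, or for 3 d before 96 h of low R:FR, the light signal of shade. Low R:FR was given with red light of 13 µE, far-red of 20 µE and blue of 1.23 µE, so the amount of light changed together with its colour, and the effects of both cannot be told apart here. The labels give 1 sample per group; the values are read counts divided by 1 factor per library. Col-0 columns were means, by the authors, over 2 libraries that could be separated again into reads, and each mutant column was 1 library, which makes 6 libraries in all.

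The 6 libraries held between 7358583 and 14684713 recovered reads. Nothing states that the paired Col-0 libraries came from separate plants, so p-values measure library spread, possibly a technical one, and the lone mutant libraries were assumed to vary like Col-0. HFR1 (AT1G02340) stood at 27.9 normalized counts in Col-0 in white light, at 2203 in Col-0 in low R:FR, and at 189 and 2112 in the corresponding mutant libraries. PIL1 (AT2G46970) stood at 16.5, 277, 220 and 1574 normalized counts in the same order. Only HFR1 in low R:FR was lower in the mutant library than in Col-0, by little, and both genes were higher there in white light. Counts per locus do not check these alleles, so every direction given for the mutant rests on its labels, and "hfr1 pil1" below means the libraries labelled so. Shoot markers reached 10.8 normalized counts for 9 of 10 genes in each column, and CRC was at or near 0. Of 10 root markers 9 or 10 reached it, although the tissue is labelled shoot. The summed root markers were 3200 normalized counts in Col-0 in white light and 3699 after low R:FR, and in hfr1 pil1 2555 and 3941. By edgeR 3 of the 10 root markers rose and 2 fell in Col-0, and 5 rose and 0 fell in hfr1 pil1. Their median log2 ratio was -0.12 in Col-0 and 0.54 in hfr1 pil1. Set directly against Col-0, 2 of the 10 were called lower in hfr1 pil1 in white light and 0 were called in low R:FR. The difference of the responses was called for 1, and each mutant group is 1 library. The summed shoot markers were 266918, 125730, 268387 and 117946 in the order of the summed root markers. Most of that sum was 2 Rubisco small subunit genes, and the other 8 shoot markers summed to 42987, 36883, 33379 and 28983. Whether the part of other tissues in a sample bears on the plastid transcripts was not tested. In bulk tissue, fewer plastids or green cells and less RNA in each cannot be told apart.

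Together the 97 members made up 2.56% of the summed normalized counts in Col-0 in white light and 2.27% after low R:FR. In hfr1 pil1 they made up 2.45% in white light and 2.74% after low R:FR. These shares have no replicate, since the columns are means or single libraries. Most of each share came from 4 members, in 2 of the shared-read pairs, which held between 90.8% and 91.6% of the members' sum. The shares add both partners of each pair, so the same reads may be counted at 2 loci and the shares may be too high. They were not computed with each pair taken once. One pair stood at 52775 and 53049 normalized counts in Col-0 in white light, at 43701 and 43843 in Col-0 in low R:FR, at 48096 and 48302 in hfr1 pil1 in white light and at 50692 and 50964 after low R:FR. The other pair stood at 80260 and 80687, at 64161 and 64379, at 77385 and 77731, and at 76697 and 77060, in the same order. Thus the 4 most abundant loci were lowest in Col-0 in low R:FR. Their log2 ratios of low R:FR to white light, taken after adding 10.8 to each value, lay between -0.33 and -0.27 in Col-0 and between -0.01 and 0.08 in hfr1 pil1. At such high values the Col-0 means could not be separated into reads, so these members have no test. Without them the share was 0.224%, 0.197%, 0.224% and 0.231% of the columns.

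In Col-0, plastid transcripts were on the whole lower after 96 h of low R:FR. The summed normalized counts of the 93 members that could be tested were 24629 and 26537 in the white-light libraries and 19873 and 21253 in the low R:FR libraries. Both low R:FR libraries lay below both white-light libraries. The median log2 ratio was -0.33 over all 97 members, against -0.02 over the 20116 loci of the table above 10.8, and 75 members lay below 0 and 22 above. By edgeR's quasi-likelihood test with a Benjamini-Hochberg adjusted p under 0.05 over 20017 loci, 38 of the 93 members fell and 7 rose. Of all tested loci, 48.2% were called, 23% higher and 25.3% lower, so the share of members called (48.4%) was close to the background, with 40.9% of members lower and 7.53% higher. With 1 Col-0 library left out at a time, 1 to 4 members rose: 1 without the first white-light library, 4 without the second, and 3 and 4 without the first and second low R:FR library. With each shared-read pair taken once, 32 of 86 fell and 7 rose. These 32 include both ATCG00960 and ATCG01170, which mirror each other in locus order. The fitted log2 fold changes of the members that fell ran from -1.93 to -0.34, and of those that rose from 0.31 to 1.26. DESeq2 called fewer, with 19 lower and 1 higher, against 12.5% and 12.7% of all loci (25.3% in either direction), and all 20 were among edgeR's calls. When the summed reads of the 93 tested members themselves served as the library size, 25 were lower and 19 higher. The split between directions is thus relative to the scaling. This sum centres the members' changes on itself and leaves out the 4 untested members. In the first Col-0 white-light library it was 24629 normalized counts, or 12304 without the 2 most abundant tested members.

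The response differed widely between members, and the most abundant tested ones moved in opposite directions. ATCG00020, the most abundant of the 93 by its mean, stood at 5365 and 6348 normalized counts in Col-0 in white light, 7080 and 7435 after low R:FR, 5433 in hfr1 pil1 in white light and 9246 after low R:FR. Its low R:FR libraries lay above the white-light libraries in both genotypes. It rose by 0.31 ± 0.078 (log2 fold change and SE; edgeR, adjusted p = 0.00494) in Col-0, a call that was lost without the first white-light library (0.19), and by 0.77 ± 0.11 (adjusted p = 0.000131) in hfr1 pil1. The second most abundant stood at 6959 and 7233 normalized counts in Col-0 in white light, 3898 and 4357 after low R:FR, 7082 in hfr1 pil1 in white light and 3919 after low R:FR. It fell in both genotypes, by log2 fold changes of -0.78 ± 0.069 (edgeR, adjusted p = 9.17e-07) and -0.85 ± 0.099 (adjusted p = 2.02e-05), and its white-light and low R:FR libraries did not overlap. The third and the fourth, neighbours in locus order, also fell in both. The third had a log2 fold change of -0.84 ± 0.068 in Col-0 (edgeR, adjusted p = 4.1e-07) and -0.67 ± 0.099 in hfr1 pil1 (adjusted p = 0.000152). The fourth had -0.88 ± 0.063 (edgeR, adjusted p = 1.55e-07) and -0.70 ± 0.092 (adjusted p = 5.9e-05). Without the 2 most abundant members, the summed normalized counts of the rest were 12304 and 12956 in Col-0 in white light, 8895 and 9461 after low R:FR, 12849 in hfr1 pil1 in white light and 10286 after low R:FR.

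Besides ATCG00020, 1 other member averaging at least 54 normalized counts rose in Col-0. ATCG00630 stood at 113 and 99.5 normalized counts in white light and at 145 and 146 after low R:FR in Col-0, and at 103 and 206 in hfr1 pil1. Both genotypes had their higher values in low R:FR, with log2 fold changes of 0.44 ± 0.12 (edgeR, adjusted p = 0.00971) and 1.00 ± 0.18 (adjusted p = 0.000663). The Col-0 call was lost in DESeq2 and without the second white-light library. The other 5 that rose in Col-0 were low, with means under 50 normalized counts. Among members in that range, 5 of 45 rose and 11 fell in Col-0, where 23% and 25.3% of all loci were called higher and lower. Among the 37 members with means from 50 to 200, 1 rose and 21 fell, and among the 11 with means from 200 to 10000, 1 rose and 6 fell.

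ATCG00940 had the lowest fold change in Col-0 among the members above that mean whose identifiers carry no note, with 1 locus of each shared-read pair considered. It stood at 89.7 and 82.7 normalized counts in Col-0 in white light, 21.5 and 29.0 after low R:FR, 109 in hfr1 pil1 in white light and 18.0 after low R:FR. Every low R:FR library lay far below every white-light library, with log2 fold changes of -1.80 ± 0.20 (edgeR, adjusted p = 7.7e-06) in Col-0 and -2.59 ± 0.34 (adjusted p = 6.18e-05) in hfr1 pil1. ATCG00890 stood at 78.6 and 85.1 normalized counts in Col-0 in white light, 30.1 and 35.3 after low R:FR, 73.2 in hfr1 pil1 in white light and 42.9 after low R:FR. It fell in Col-0 by a log2 fold change of -1.33 ± 0.18 (edgeR, adjusted p = 5.77e-05), while -0.77 ± 0.29 (adjusted p = 0.0505) in hfr1 pil1 did not pass. Both loci belong to shared-read pairs, so each value may stand for 2 copies of a gene. These 4 identifiers were chosen, by their fold change, after the values were seen.

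Of the members with a known protein, ATCG01310, ribosomal protein L2 of the large subunit, had 135 and 138 normalized counts in Col-0 in white light, 87.2 and 86.2 after low R:FR, 144 in hfr1 pil1 in white light and 88.5 after low R:FR. It fell in both genotypes, by log2 fold changes of -0.65 ± 0.13 (edgeR, adjusted p = 0.000859) and -0.70 ± 0.20 (adjusted p = 0.0136), and both calls were lost in DESeq2. ATCG00660, ribosomal protein L20 of the large subunit, stood at 20.7 and 15.6, 13.5 and 18.0, 27.0, and 22.1 normalized counts in the same order of libraries and was called in neither genotype. Its Col-0 libraries overlapped between the lights.

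ATCG00670, the ClpP subunit of the main soluble protease of the chloroplast, stood at 76.2 and 92.3 normalized counts in Col-0 in white light and at 63.9 and 65.8 after low R:FR. In hfr1 pil1 it stood at 91.6 and 89.8. The Col-0 libraries did not overlap, but the log2 fold change of -0.36 ± 0.16 did not pass (edgeR, adjusted p = 0.084). ATCG00430, whose note uses an older name (the protein once so called is now known as a subunit of the NDH complex), had 50.8 and 68.3 normalized counts in Col-0 in white light and 63.2 and 71.3 after low R:FR, and 72.4 and 47.0 in hfr1 pil1. ATCG00530, related by its note to the chloroplast envelope protein CemA, had 85.8 and 92.3, then 81.0 and 72.1, and in hfr1 pil1 88.6 and 98.1. Neither was called in either genotype by edgeR, with log2 fold changes in Col-0 of 0.20 ± 0.19 and -0.20 ± 0.15. Under the plastid scaling alone, ATCG00430 was called higher in Col-0 (0.52).

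**Figure D1:**
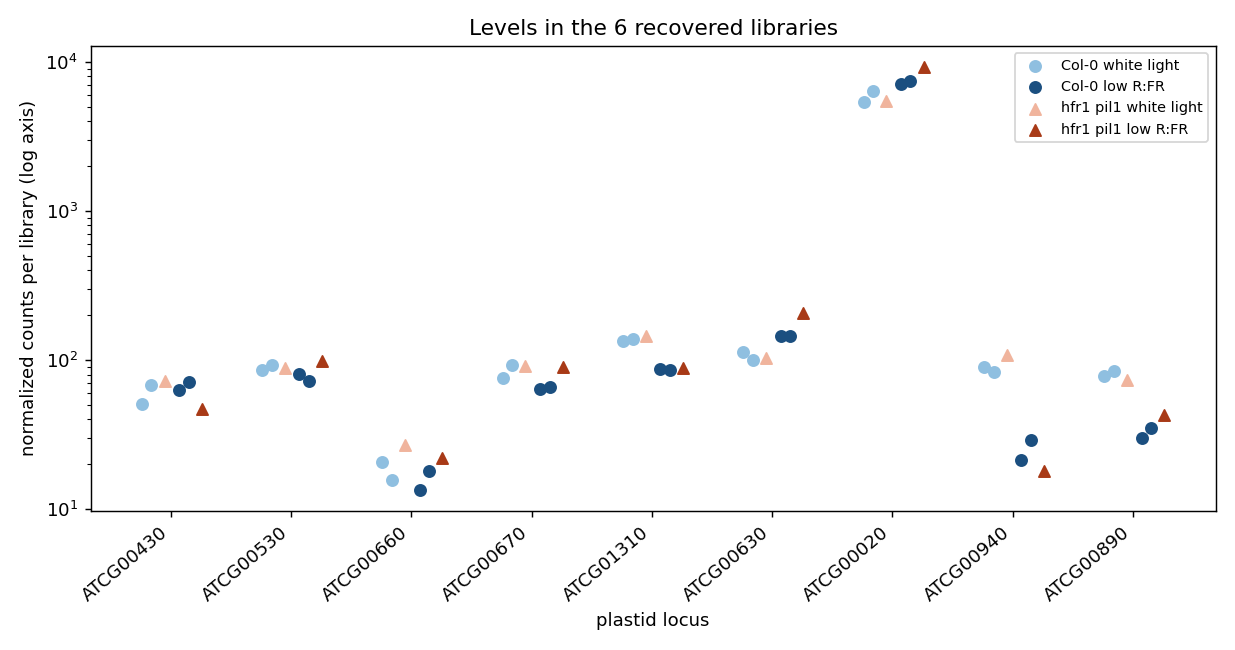
Normalized counts (log axis) of 9 plastid loci in each of the 6 libraries; circles are Col-0, triangles are hfr1 pil1, light colours are white light and dark colours low R:FR, and each point is 1 library with no error bar. ATCG00020 and ATCG00630 are higher and ATCG01310, ATCG00940 and ATCG00890 lower in low R:FR in every library of both genotypes.

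Several members that fell in Col-0 were neighbours along the plastid identifiers. For the 3 loci placed above in the single-copy regions, identifier numbers ran in the same order as their positions in the annotation, so locus order is used here as an approximate map. The longest unbroken run among tested members was 7 neighbours that all fell in Col-0, at ranks 58 to 64 of 97, with log2 fold changes from -1.26 to -0.70, and 5 of them also fell in hfr1 pil1. The members at ranks 11 to 14 fell together in Col-0 (-1.20 to -1.05), all 4 of them in hfr1 pil1 too. The 4 at ranks 20 to 23 had log2 fold changes from -0.88 to -0.58 in Col-0, with 3 falling in hfr1 pil1. Beside 25.3% of all loci lower and 23% higher, the calls were spread as follows. Among ranks 1 to 20, 9 fell and 3 rose in Col-0. Among ranks 21 to 40 it was 5 and 1, and among ranks 41 to 59 it was 4 and 3. Among the 17 tested members at ranks 60 to 78, 11 fell and 0 rose, and among the 17 at ranks 79 to 97, 9 fell and 0 rose. The unadjusted edgeR p was under 0.05 for 53 of the 93 members (57.0%) in either direction, against 54.3% of all loci. The last ranks hold the repeat, so that partners of a pair count there as separate members. Over neighbouring tested members the fitted log2 fold changes had a Pearson correlation of 0.61 in Col-0 and 0.63 in hfr1 pil1. This is given as a description, since neighbours can share transcripts, reads and libraries.

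**Figure D2:**
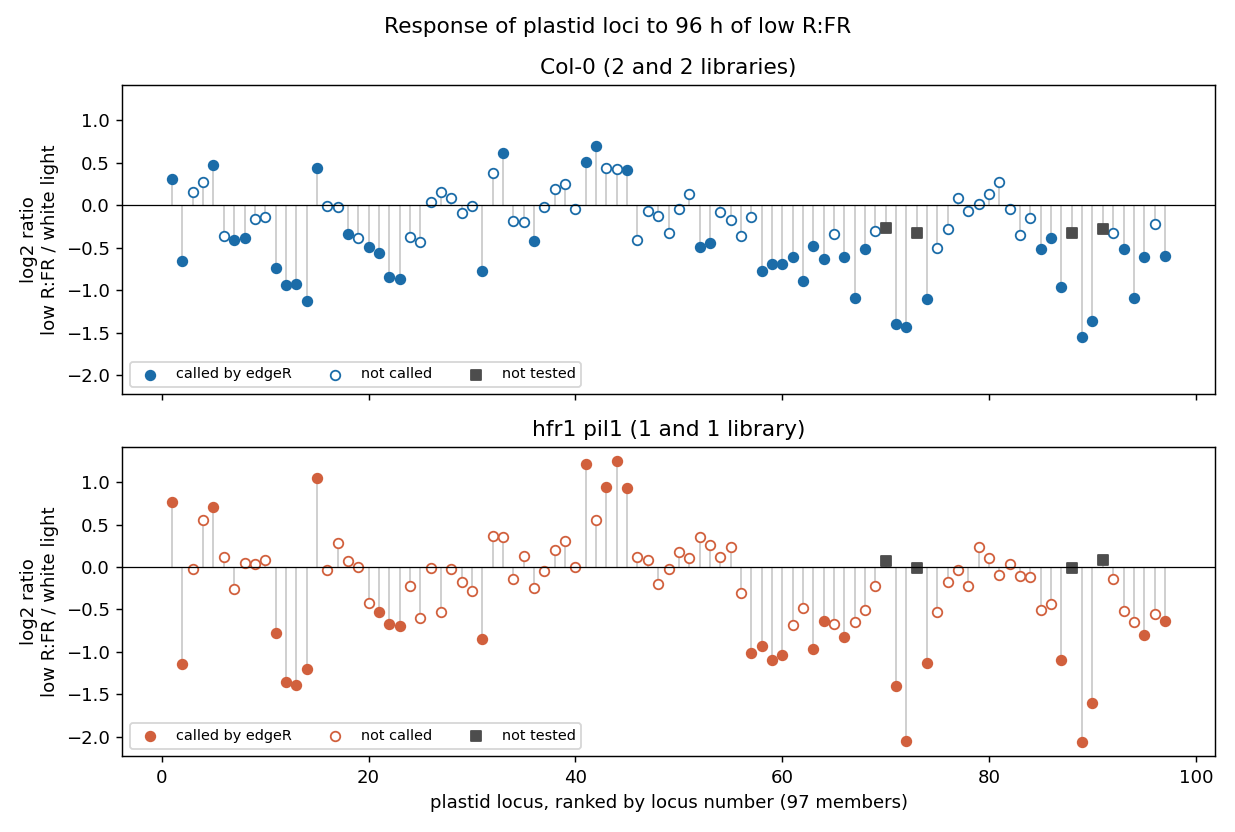
Log2 ratio of low R:FR to white light (after adding 10.8 normalized counts) of the 97 plastid members in the order of their locus numbers, in Col-0 above and hfr1 pil1 below; filled points were called by edgeR, open points were not, and squares are the 4 members without a test. Stretches of neighbours lie together below 0, as at ranks 11 to 14 and 58 to 64, in both genotypes.

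In hfr1 pil1 the summed normalized counts of the 93 tested members were 25364 in white light and 23450 after low R:FR, with 1 library each. By edgeR, 24 of the 93 members fell and 7 rose in low R:FR, or 33.3%, against 36.9% of all loci (18.4% higher and 18.5% lower). With each shared-read pair taken once, 20 of 86 fell and 7 rose. These 20 again include both ATCG00960 and ATCG01170. Fitted log2 fold changes ran from -2.60 to -0.55 for those that fell and from 0.77 to 1.94 for those that rose. The median log2 ratio over the 97 members was -0.14, against -0.01 over all loci, with 63 members below 0 and 34 above. These log2 ratios were taken after adding 10.8 normalized counts to each value. By this ratio alone, 13 members were lower and 3 higher by at least 1 in hfr1 pil1, against 4.57% and 6.49% of all loci. In Col-0 it was 8 and 0 members, against 2.79% and 4.79% of all loci. Adding 10.8 pulls loci of low level towards 0, so these are not counts of 2-fold changes in the values themselves. ATCG00600 stood at 8.77 normalized counts in Col-0 in white light and 21.0 after low R:FR, with a ratio of 0.70. Since 45 of the 97 members had means under 50, members and all loci are not compared evenly. DESeq2 called 11 lower and 2 higher among 90 members with an adjusted p, against 9.02% and 9.17% of all loci (18.2% in either direction).

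By edgeR, 28 members were called in both genotypes, which is 62.2% of the 45 called in Col-0 and 90.3% of the 31 called in hfr1 pil1. Over all loci these shares were 62.7% and 82.0%, so the overlap is not read as particular to plastid transcripts. Of the 93, 23 fell in both genotypes, 5 rose in both, and 0 were called in opposite directions. In Col-0 alone 15 fell and 2 rose, in hfr1 pil1 alone 1 fell and 2 rose, and 45 were called in neither. Of the 28 called in both, 24 (85.7%) had the larger fold change in hfr1 pil1, against 70.3% over all loci called in both. Such members had to pass in the genotype with the larger SE, and whether this bears on the share was not tested. The 28 include both partners of several shared-read pairs, and both ATCG00960 and ATCG01170, and were not counted with pairs taken once. Over all 93 the difference of the log2 ratios, hfr1 pil1 minus Col-0, lay above 0 for 49 and below 0 for 44. Its sign does not tell which response was larger, since members fell as well as rose. Over the 86 members with pairs taken once, the 2 responses had a Pearson correlation of 0.85 and a Spearman correlation of 0.81, and 63 had the same sign. The responses share no library, members next to each other may share transcripts, and over all loci the Pearson correlation was 0.82.

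**Figure D3:**
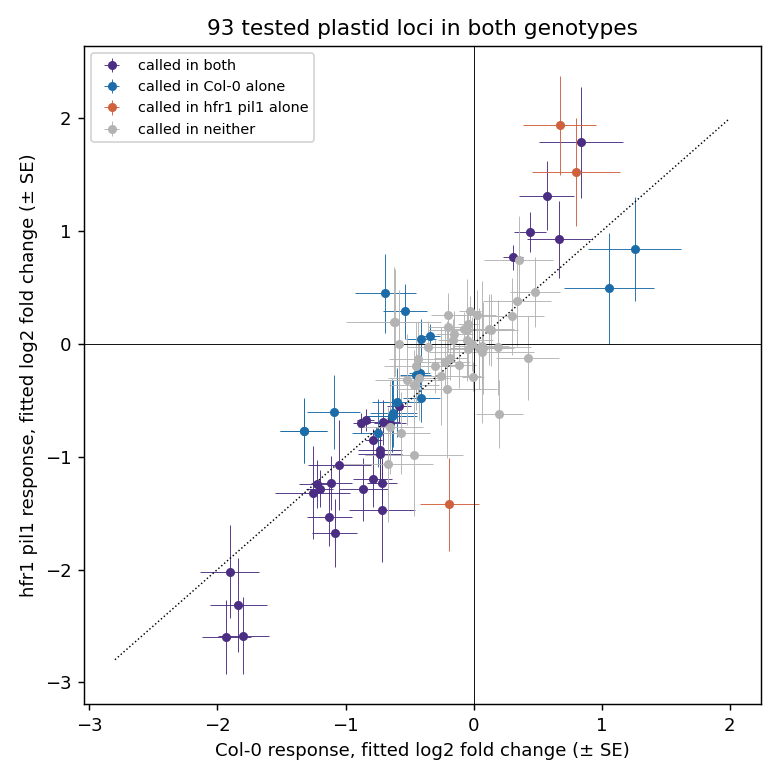
Fitted log2 fold change (edgeR, ± SE) of low R:FR against white light for the 93 tested plastid members, in Col-0 (horizontal) and hfr1 pil1 (vertical), coloured by the genotypes in which a member was called; the dotted line marks equal responses. The 28 members called in both lie at the lower left and the upper right, 24 of them farther from 0 in hfr1 pil1.

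Set directly against each other, the genotypes showed no called difference in plastid transcripts. In low R:FR 0 of 93 members were called by edgeR, with 14 (15.1%) at an unadjusted p under 0.05 against 13.7% of all loci, while 2.38% of all loci were called (0.984% higher and 1.4% lower). In white light 0 were called, with 4 (4.30%) at an unadjusted p under 0.05 against 14.5% of all loci, while 2.48% of all loci were called (0.58% higher and 1.9% lower). The difference of the responses was called for 0 members, with 10 (10.8%) at an unadjusted p under 0.05 against 16.3% of all loci, while 3.79% of all loci were called (1.98% higher and 1.81% lower). DESeq2 called 0 members in each of these comparisons too, but gave an adjusted p to only 16, 87 and 9 of the 93 in this order. Its unadjusted p was under 0.05 for 2, 0 and 1 members, and it called 1.36%, 0.634% and 3.13% of the loci it adjusted. The median log2 ratio of the members, hfr1 pil1 to Col-0, was 0.10 in low R:FR and 0.04 in white light. ATCG00020 came closest to a call among the members named here, with a log2 fold change of 0.35 ± 0.094 in low R:FR (edgeR, adjusted p = 0.0799) and a difference of the responses of 0.46 ± 0.13 (adjusted p = 0.0883). Both were called without the first Col-0 white-light library and with no filter on low values, and the first also without the second white-light library. The effect of 1 library in each mutant group on what could be called was not tested.

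The 30 mitochondrial loci above 10.8 normalized counts, also of organelle origin, had the same median log2 ratio in Col-0 as the plastid members, -0.33. Of these, 8 fell (26.7%, against 25.3% of all loci) and 0 rose. In hfr1 pil1 their median was -0.07, with 1 lower (3.33%, against 18.5% of all loci) and 0 higher. They made up 0.157% of the summed counts in Col-0 in white light, 0.110% in Col-0 in low R:FR, 0.136% in hfr1 pil1 in white light and 0.137% after low R:FR. The difference of the responses was called higher for 2 of them, where 1.98% of all loci were called higher. Their median difference was 0.35 on the log2 scale, against 0.03 over the plastid members. The 4 plastid members without a test had differences of 0.31 to 0.35.

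Most nuclear genes whose products transcribe and process plastid RNA fell in low R:FR. All 6 sigma factors, which guide the bacterial-type polymerase to its promoters, fell in Col-0, where 25.3% of all loci were called lower. SIG4 stood at 589 and 531 normalized counts in white light and at 337 and 376 after low R:FR, with a log2 fold change of -0.66 ± 0.086 (edgeR, adjusted p = 3.16e-05). In hfr1 pil1, 3 of the 6 fell, where 18.5% of all loci were called lower. SIGE, also called SIG5 and known for its response to light and stress, had 404 and 463 normalized counts in Col-0 in white light, 272 and 302 after low R:FR, 310 in hfr1 pil1 in white light and 351 after low R:FR. It fell in Col-0 (-0.59 ± 0.095, edgeR adjusted p = 0.000194) and was not called in hfr1 pil1 (0.18 ± 0.15, adjusted p = 0.369). The difference of these responses was 0.77 ± 0.17 (edgeR, adjusted p = 0.0286), a call lost in DESeq2 and without the first Col-0 low R:FR library. Of the 2 phage-type polymerases that serve plastids, SCA3, also called RPOTP, fell in both genotypes (-0.62 ± 0.087 and -1.25 ± 0.14). The other, which also serves mitochondria (AT5G15700), was called in neither (0.04 ± 0.15 and 0.11 ± 0.22).

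Of 12 proteins bound to the plastid-encoded polymerase, 11 fell in Col-0 and all 12 in hfr1 pil1. Of all loci, 25.3% were called lower in Col-0 and 18.5% in hfr1 pil1. FSD3, an iron superoxide dismutase, stood at 851 and 740 normalized counts in Col-0 in white light, 303 and 331 after low R:FR, 1024 in hfr1 pil1 in white light and 283 after low R:FR. No low R:FR library reached any white-light library, and the log2 fold changes were -1.34 ± 0.087 (edgeR, adjusted p = 6.04e-08) and -1.85 ± 0.13 (adjusted p = 4.22e-07). The difference of the responses was called lower for 5 of the 12, among them FSD2, a related superoxide dismutase (-0.93 ± 0.16, edgeR adjusted p = 0.00707), and PDE312 (-0.89 ± 0.16, adjusted p = 0.00922). In white light 5 of the 12 were higher in hfr1 pil1 than in Col-0. Of all loci, 1.81% had a difference of the responses called lower, and 0.58% were higher in hfr1 pil1 in white light. Of 15 tested RNA-binding and processing factors, 13 fell and 1 rose in Col-0, and 11 fell and 1 rose in hfr1 pil1. RBP31, which binds and protects many plastid mRNAs, fell from 8512 and 8532 to 4197 and 4714 normalized counts in Col-0, a log2 fold change of -0.94 ± 0.069 (edgeR, adjusted p = 1.88e-07). In hfr1 pil1 it stood at 9466 and 3722. MRL1, known to stabilise the transcript of the Rubisco large subunit, had log2 fold changes of -0.82 ± 0.067 (edgeR, adjusted p = 4.97e-07) and -1.36 ± 0.10 (adjusted p = 5.91e-07). HCF173, needed for translation of a photosystem II core protein, rose in both, by 0.24 ± 0.065 (edgeR, adjusted p = 0.0088) and 0.35 ± 0.093 (adjusted p = 0.0102). The first call was lost without the second Col-0 low R:FR library and the second in DESeq2. HCF173 was named because it made up the count of 1.

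Nuclear subunits of the complexes that plastid genes help to build were lower as well. All 26 nuclear genes for plastid ribosomal proteins fell in Col-0 and in hfr1 pil1, with median log2 ratios of -0.75 and -1.33. Of all loci, 25.3% were called lower in Col-0 and 18.5% in hfr1 pil1, which holds for each list in this paragraph. RPL9 had 3464 and 3241 normalized counts in Col-0 in white light, 1674 and 1842 after low R:FR, 3937 in hfr1 pil1 in white light and 1277 after low R:FR. Its response was larger in hfr1 pil1, with a difference of -0.69 ± 0.12 (edgeR, adjusted p = 0.00887), and 22 of the 26 had such a called difference, 0 of them higher. In low R:FR 9 of the 26 were lower in hfr1 pil1 than in Col-0. Of all loci, 1.81% had a difference of the responses called lower, and 1.4% were lower in hfr1 pil1 in low R:FR. Of the plastid-encoded ribosomal proteins described here, L2 and L20, 1 fell in Col-0, and the difference of the responses was called for 0. The SE of that difference was 0.24 for L2 and 0.55 for L20, against 0.12 for RPL9. The counts of calls thus do not compare plastid with nuclear ribosomal protein genes. All 13 nuclear NDH subunits fell in Col-0 and 12 in hfr1 pil1, with 0 called differences of the responses; edgeR's adjusted p over all loci is the measure in each of these counts. PnsB2 had 2256 and 2184 normalized counts in Col-0 in white light and 1018 and 1082 after low R:FR. All tested nuclear subunits of photosystem I (7 of 12 listed), photosystem II (4 of 11), and ATP synthase and the cytochrome b6f complex (4 of 5) fell in Col-0. In hfr1 pil1 7, 3 and 4 of these fell. The 4 small subunit genes of Rubisco were too abundant to be tested. Their log2 ratios lay between -1.78 and -1.10 in Col-0 and between -1.73 and -1.25 in hfr1 pil1.

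**Figure D4:**
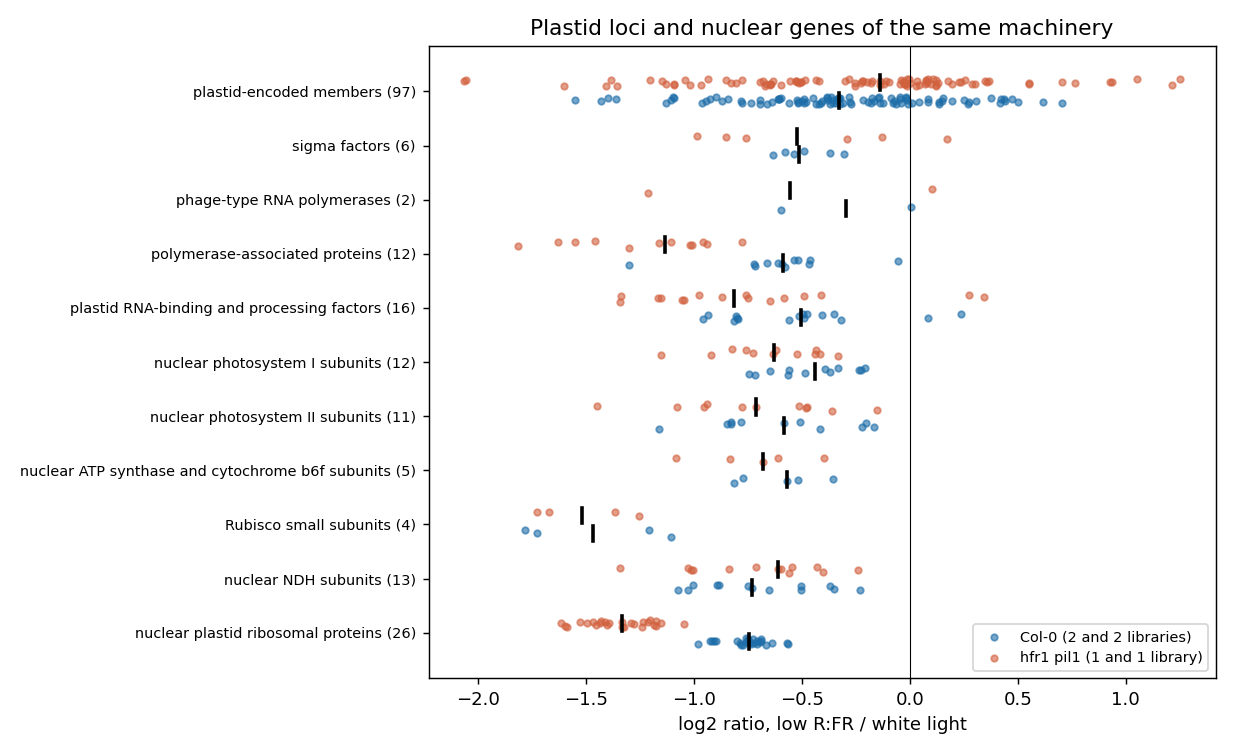
Log2 ratio of low R:FR to white light (after adding 10.8 normalized counts) for the 97 plastid members and for nuclear genes of the same machinery, in Col-0 (blue) and hfr1 pil1 (orange); each point is 1 gene, black bars are medians, and the number of genes is in parentheses, untested genes included. The plastid members spread to both sides of 0, while all 26 nuclear plastid ribosomal protein genes lie below 0, with medians of -0.75 and -1.33. Adding 10.8 pulls loci of low level towards 0, and 45 of the 97 plastid members had means under 50 normalized counts, so sizes are not compared evenly.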

How the data were processed

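Total RNA from shoots was sequenced; whether polyadenylated RNA was selected or ribosomal RNA removed is not given in the sources used here, which matters because plastid transcripts mostly lack stable poly(A) tails. The submitters' processing notes name Bowtie and TAIR10, with no version of Bowtie. The deposited table holds a normalized signal, read counts divided by 1 factor per library; the headers mark both Col-0 columns as means, per the file headers. How reads that fit several places or either strand were counted is not given, so overlapping and antisense loci cannot be told apart.

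Whole reads were recovered: mutant values are whole multiples of 1 step, within 0.01 reads, and Col-0 values sums of multiples of 2 steps. The recovered factors were 1.26 and 0.834 for Col-0 in white light, 1.63 and 1.28 for Col-0 after low R:FR, and 1.30 and 0.723 for hfr1 pil1. Values of 74 and 83 loci in the Col-0 columns, all high, were not separated. Loci whose mean reached 10.8 (a millionth of the mean column total) entered a fit with edgeR 4.0.16 under R 4.3.3 (quasi-likelihood, the deposited factors, 6 libraries, 2 residual degrees of freedom, biological coefficient of variation 0.0525, prior degrees of freedom 10.8), with DESeq2 1.42.0 as an alternative. Each SE is the size of the fitted change over the root of its F statistic. The scripts were tested on simulated data. Between the Col-0 libraries of a column, log2 values of the tested members differed with an SD of 0.213 (white light) and 0.175 (low R:FR), close to all loci (0.212 and 0.175).

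Members and gene lists were chosen with earlier results of these data known. The planned naming of members by role could not be used, because identifiers are not paired with names; instead 5 members with notes were named (1 further item is not reported here), with the 2 highest and 2 lowest Col-0 fold changes among called members without a note, with a mean of at least 54 and 1 locus of each pair. Nuclear genes were named from the lists, from the 4 with the largest log2 ratio in Col-0, HCF173 excepted.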

Additional observations from a re-analysis of the deposited data

Results flagged for a closer look

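The responses of the 2 genotypes differed, by edgeR's test of the difference itself (Benjamini-Hochberg adjusted p under 0.05), in 4 of the nuclear lists and in 0 of the 93 tested plastid members. Of these 93, 45 had means under 50 normalized counts, which leave wide errors. The 4 most abundant members had no test and differences of 0.31 to 0.35. The 0 therefore does not show that plastid transcripts responded alike in both genotypes. For 22 of 26 nuclear genes of plastid ribosomal proteins the response was lower in hfr1 pil1 than in Col-0, and leaving out 1 Col-0 library at a time gave 17 to 26. For 5 of 12 polymerase-associated proteins the response was lower in hfr1 pil1 (8 without the first Col-0 white-light library), and for 4 of 15 RNA-binding and processing factors (2 by DESeq2). For 1 of 6 sigma factors, SIGE, it was higher in hfr1 pil1, which was lost in DESeq2. Over all loci 1.81% had a lower and 1.98% a higher response. Each response of hfr1 pil1 rests on 1 library per light.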

How the results depend on the processing

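No paired analysis was possible because the labels give 1 sample per group and no replicate numbers. The plastid scaling (summed reads of the 93 tested members as library size) gave 19 higher and 25 lower members in Col-0 in place of 7 and 38, and DESeq2 gave 1 and 19. Leaving out 1 Col-0 library at a time, 1 to 4 members were higher in Col-0 (1 without the first white-light library, 4 without the second, 3 and 4 without the low R:FR libraries), so that the count of members that rose depends on each library. For hfr1 pil1 DESeq2 gave 2 higher and 11 lower in place of 7 and 24. Without the filter on low values 3 members were higher in hfr1 pil1 than in Col-0 in low R:FR and 2 had a higher response, in place of 0. These counts were 0 to 1 and 0 to 2 when 1 Col-0 library was left out. The median log2 ratio of the members in Col-0, -0.33, was -0.40 with a pseudocount of 1, -0.18 with a pseudocount 5 times as large, -0.21 with columns rescaled to 1 total, -0.22 with nuclear loci rescaled to 1 total and -0.070 with the members rescaled to 1 total. For hfr1 pil1, -0.14 became -0.029 and -0.026 under these total scalings. With the members rescaled to 1 total, the median between genotypes in low R:FR became -0.092 and the difference of the responses -0.23. The causes were not tested. Rescaling to 1 column total raised the median of all loci by 0.12 in Col-0 and 0.14 in hfr1 pil1, at least as large as the shift of the members in each genotype. The shares of the columns without the 4 most abundant members (0.224%, 0.197%, 0.224% and 0.231%), and counts with each shared-read pair taken once, were added after the data were seen. None of the members named by identifier changed sign under a call in any setting. The alternatives limited to protein-coding single-copy members, and to shares without named loci, were not run, since the identifiers are not paired with names. Members above 40000 normalized counts could not be tested at all, and means under 50 leave wide errors.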
